A study of Mus musculus with 16 samples.

Results

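Kupffer cell and macrophage markers were followed in the livers of obese mice given G108, a long-acting agonist of the glucagon receptor, on diets that differed in protein. The 10 genes were chosen by symbol: Clec4f, Vsig4, Cd5l, Marco and Timd4 for resident Kupffer cells, Adgre1, Cd68 and Lyz2 for macrophages of any origin, and Trem2 and Ccr2 for lipid-laden and recruited macrophages. All 10 were found among the 55487 genes of the deposited table, 1 row each. Livers came from 16 male C57BL6/J mice with no transgene, 4 in each of 4 groups that combined vehicle or G108 with an SP or HP diet. By the sample records the mice were 10 weeks old when they began 8 weeks on a diet with 60% of its energy as fat. They then received either a high fat diet of standard protein content (SP) or a high fat diet of high protein content (HP), and a daily subcutaneous injection for 22 days, which held vehicle or 2.5 nmol/kg of G108. By the study's methods, the mice moved to the SP or HP diet before the injections began. A group is named by its treatment and its diet, as in G108 HP. Livers were taken on day 25 after a 4 h fast. All 16 mice were obese and on a high fat diet, so no lean liver is part of the comparison.

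Kupffer cells are the macrophages that live inside the sinusoids of the liver, where they take up particles, microbes and aged red blood cells from the blood. They are seeded before birth and renew themselves locally. In obesity and fatty liver some of them are lost, and monocytes that enter from the blood through the chemokine receptor CCR2 can take their place, while TREM2 marks macrophages that gather around lipid. Glucagon receptors in the liver are found mainly on hepatocytes.

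Macrophage genes are switched on by PU.1, a transcription factor that binds DNA around the core GAGGAA, which reads TTCCTC on the other strand. The 250 bases before the start of 3 markers are printed here because these genes span the range of behaviour described here: Cd5l followed the other phagocyte genes most closely, Vsig4 held the core at more than 1 place, and Marco stood apart in single mice. They are RefSeq sequences of GRCm38.p6, printed 5′ to 3′ on the strand of the gene, with each GAGGAA or TTCCTC in capitals. The windows are chr3:87357631-87357880 on the plus strand for Cd5l, chrX:96293439-96293688 on the minus strand for Vsig4 and chr1:120505025-120505274 on the minus strand for Marco.
Cd5l: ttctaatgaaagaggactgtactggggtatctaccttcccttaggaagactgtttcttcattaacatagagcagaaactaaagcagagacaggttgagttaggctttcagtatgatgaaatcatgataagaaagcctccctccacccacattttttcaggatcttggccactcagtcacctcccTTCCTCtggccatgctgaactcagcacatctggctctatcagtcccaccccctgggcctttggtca
Vsig4: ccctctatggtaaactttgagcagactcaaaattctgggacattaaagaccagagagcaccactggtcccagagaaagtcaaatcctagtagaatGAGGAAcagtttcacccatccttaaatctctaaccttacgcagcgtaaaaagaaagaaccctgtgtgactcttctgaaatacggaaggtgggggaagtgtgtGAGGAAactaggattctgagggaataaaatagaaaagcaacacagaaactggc
Marco: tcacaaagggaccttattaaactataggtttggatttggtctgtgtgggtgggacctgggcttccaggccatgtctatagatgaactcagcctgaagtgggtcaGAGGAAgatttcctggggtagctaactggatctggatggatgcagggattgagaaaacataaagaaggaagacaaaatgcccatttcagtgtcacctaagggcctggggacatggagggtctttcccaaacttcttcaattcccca
The core was read once on the other strand in Cd5l, at 2 places in Vsig4 and once in Marco. Of the 9 markers with a window of this kind, 5 held the core on either strand, namely these 3 with Cd68 and Trem2, against 23.3% of all 32851 windows of the same length. Clec4f, Timd4, Lyz2 and Ccr2 held none. A match of 6 letters is a description of the sequence and not a binding site.

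Levels are given as TPM, transcripts per 1000000, which account for gene length and library size, after division by 1 factor per library so that most genes had the same level in every library. This scaled TPM was used because a few very abundant transcripts took different shares of the libraries: the major urinary protein (Mup) genes took 35.7 to 49.7% of the deposited TPM with vehicle and 18.2 to 29.6% with G108. Without the factors, the median gene was 0.60 higher on the log2 scale with G108 on SP. After it, the median gene moved by -0.01. Each library held 27.8 to 45.0 M reads (M, 1000000) on genes, recovered from the values, and mitochondrial transcripts took 13.8 to 37.3% of TPM. The defining hepatocyte gene, albumin, stood at 9367 to 15810 scaled TPM.

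Over the 16 livers, Clec4f was the most abundant of the 10 markers (median 19.3 scaled TPM), followed by Cd5l (13), Lyz2 (11.7), Vsig4 (3.91) and Cd68 (2.99). Marco (1.15), Timd4 (1.03) and Adgre1 (0.80) lay near 1 scaled TPM. Ccr2 (0.13) and Trem2 (0.11) were close to the limit of detection. The ranges over mice overlapped for every pair of neighbours in this order except Adgre1 and Ccr2. In each of the 16 livers, every resident Kupffer cell transcript stood above Ccr2 and Trem2 in scaled TPM. That order depends on the division by gene length, which was 4946 bases for Trem2, 6760 for Ccr2 and 1484 to 2471 for the resident markers. In reads it did not always hold: vehicle HP mouse 1 had 62 for Trem2 and 48 for Timd4. The counts behind a value ran from 752 to 2142 reads per library for Clec4f and from 6 to 62 for Trem2.

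None of the 10 markers passed the test for a change with G108 on either diet, or with dietary protein under either treatment, at an adjusted p under 0.05 in limma. In liver tissue, fewer macrophages and less RNA per macrophage cannot be told apart. In G108 against vehicle on SP, 0 of 10 markers passed, and 1 of 10 had an unadjusted p under 0.05. The share of all genes that passed was 2.72% (322 of 11839), or 0.726% in the fit with no filter on low values that was needed for Adgre1, Trem2 and Ccr2. In G108 against vehicle on HP, 0 of 10 passed and 1 of 10 had an unadjusted p under 0.05, against 1.22% of all genes, or 0.134% with no filter. In HP against SP with G108, 0 of 10 passed and 1 of 10 had an unadjusted p under 0.05, against 0% of all genes with or without the filter. In HP against SP with vehicle, 0 of 10 passed and 0 of 10 had an unadjusted p under 0.05, against 0% of all genes and 0.00312% with no filter. For the interaction of G108 and diet, both counts were again 0 of 10, with the same background of 0% and 0.00312%. A test of any difference among the 4 groups passed 0 of 10, with 1 of 10 at an unadjusted p under 0.05, against 2.78% of all genes. With voom on the recovered reads, which covered 7 markers, the count was 0 in every comparison as well, with 1 marker at an unadjusted p under 0.05 on SP, 1 on HP, 1 in the test of any difference and 0 elsewhere.

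**Figure D1:**
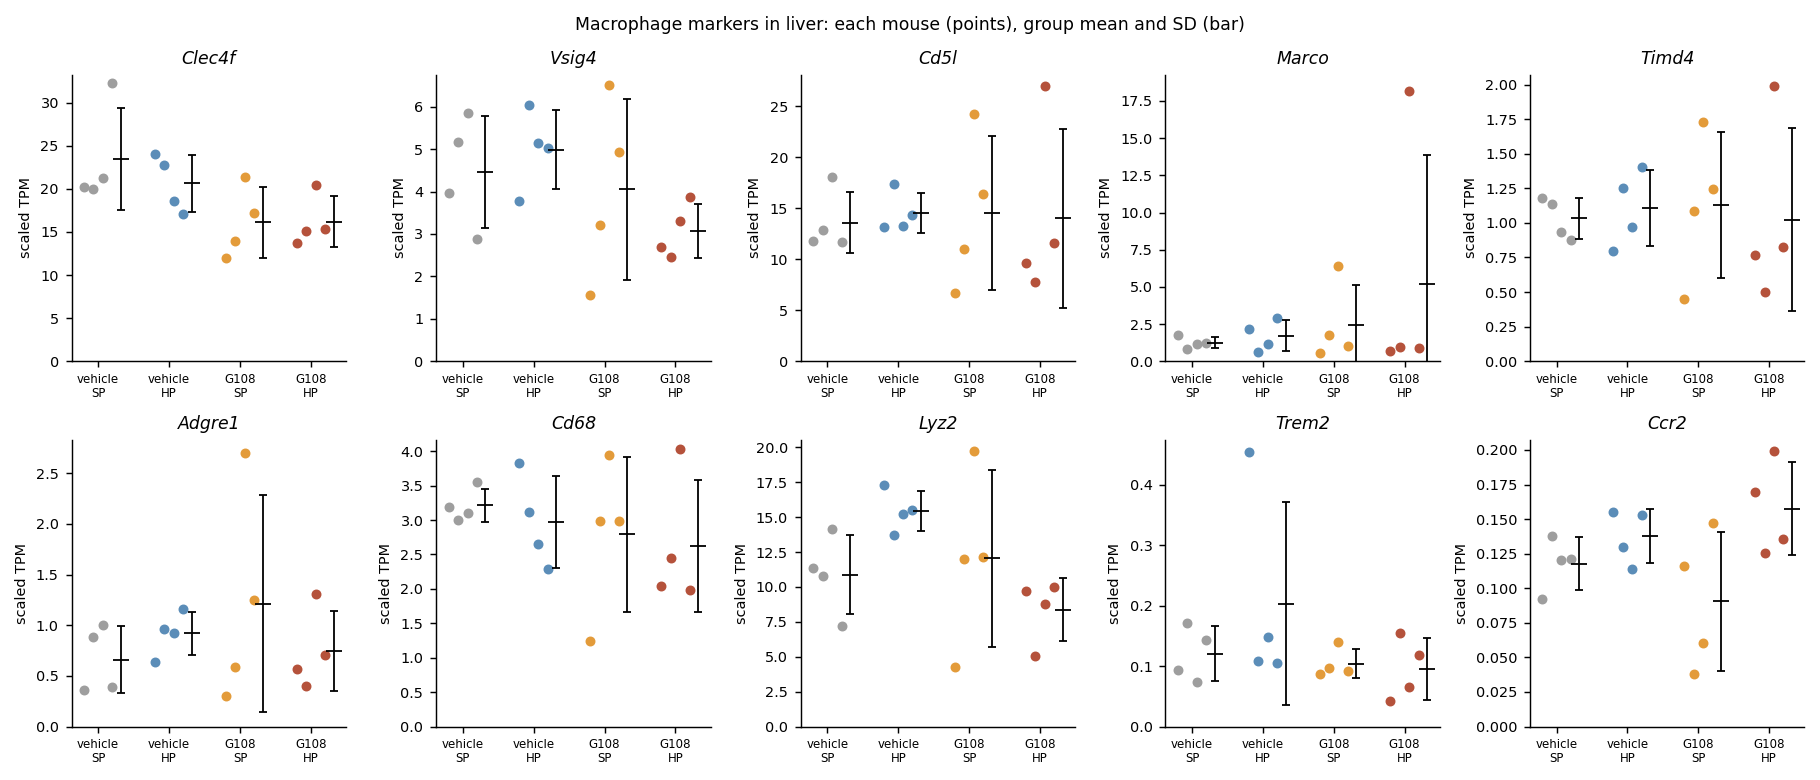
Scaled TPM (linear axis from 0) of the 10 markers in each group; each point is 1 mouse, in the order of mouse numbers 1 to 4 from left to right, and the bar gives the group mean with its SD (n = 4, cut at 0 where the SD exceeded the mean). For most genes the G108 mice spread more widely than the vehicle mice, though Clec4f spread about as much with either treatment. The groups overlap for every gene except Lyz2 on HP.

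Clec4f, a C-type lectin found on the surface of mouse Kupffer cells and on few other cells, is a protein-coding gene on the minus strand of chromosome 6, at chr6:83644542-83656187 in GRCm38. It stood at 20.2, 20.0, 21.2 and 32.2 scaled TPM in vehicle SP mice 1 to 4. Clec4f stood at 11.9, 13.9, 21.4 and 17.2 in G108 SP mice. Of the G108 SP mice, 3 lay below all vehicle SP mice and the other one, mouse 3, lay within their range, so the groups overlapped. The means were 23.4 ± 5.91 and 16.1 ± 4.13 (SD, n = 4 each), and the log2 fold change was -0.52 (SE 0.19, 95% confidence interval -0.92 to -0.11). This difference had the lowest p of the markers on SP and did not pass after adjustment over all genes (limma, adjusted p = 0.184, unadjusted p = 0.0168). Without vehicle SP mouse 4 it was -0.36 with an adjusted p of 0.407. In the TPM as deposited its direction was the opposite, 0.22 with an adjusted p of 0.365.

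On HP, Clec4f stood at 24.0, 22.8, 18.6 and 17.1 scaled TPM with vehicle and at 13.7, 15.1, 20.5 and 15.3 with G108. Again 3 of 4 G108 mice were below all vehicle mice, and mouse 3 was not. The log2 fold change was -0.33 (SE 0.19, interval -0.74 to 0.07, limma adjusted p = 0.570). Without G108 HP mouse 3 it was -0.45 (adjusted p = 0.564). Across all 4 groups Clec4f gave an unadjusted p of 0.0415 and an adjusted p of 0.347 in limma, the lowest of the markers.

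Vsig4, a complement receptor through which Kupffer cells capture particles coated with C3 fragments, stood at 3.96, 5.16, 5.84 and 2.88 scaled TPM in vehicle SP mice and at 1.56, 3.20, 6.51 and 4.93 in G108 SP mice. The G108 SP group held both the lowest and the highest of these mice, and the log2 fold change was -0.19 (interval -0.77 to 0.39). On HP it stood at 3.78, 6.03, 5.14 and 5.02 with vehicle and at 2.69, 2.45, 3.30 and 3.86 with G108. The HP groups overlapped only through vehicle mouse 1 and G108 mouse 4. The log2 fold change on HP was -0.56 (SE 0.27, interval -1.13 to 0.02), with an adjusted p of 0.465 in limma.

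Cd5l, a secreted scavenger protein of tissue macrophages, stood at 11.8, 12.9, 18.0 and 11.7 scaled TPM in vehicle SP mice and at 6.67, 10.97, 24.2 and 16.4 in G108 SP mice. It stood at 13.1, 17.4, 13.3 and 14.3 in vehicle HP mice and at 9.66, 7.78, 27.0 and 11.6 in G108 HP mice. Mouse 3 was the highest of its group with G108 on either diet, above all 8 vehicle mice. The group means were nearly equal, and the log2 fold changes were -0.02 (interval -0.78 to 0.73) on SP and -0.20 (interval -0.95 to 0.56) on HP.

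Timd4 encodes a phosphatidylserine receptor of long-lived resident macrophages that binds dying cells. It stood at 1.18, 1.14, 0.94 and 0.87 scaled TPM with vehicle and at 0.45, 1.09, 1.73 and 1.24 with G108 on SP. On HP it stood at 0.80, 1.25, 0.97 and 1.41 with vehicle and at 0.77, 0.50, 1.99 and 0.83 with G108. The G108 mice reached both lower and higher values than the vehicle mice on either diet. The log2 fold changes were 0.03 (interval -0.40 to 0.47) on SP and -0.10 (interval -0.53 to 0.33) on HP.

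Marco, a scavenger receptor of macrophages that binds bacteria and particles, varied most of the detectable markers. It stood at 1.76, 0.84, 1.16 and 1.26 scaled TPM in vehicle SP mice, at 2.16, 0.65, 1.14 and 2.93 in vehicle HP mice, and at 0.57, 1.76, 6.37 and 1.02 in G108 SP mice. In G108 HP mice it stood at 0.67, 0.99, 18.2 and 0.90. The value of G108 HP mouse 3 was 31.9 times the lowest of the 16, and mouse 3 was the highest of the G108 SP group as well. The log2 fold changes were 0.35 (interval -1.06 to 1.75) on SP and 0.37 (interval -1.04 to 1.77) on HP, and both changed sign without mouse 3: -0.11 without G108 SP mouse 3 and -0.48 (limma adjusted p = 0.971) without G108 HP mouse 3.

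The liver of G108 HP mouse 3 also stood apart in other transcripts. Spic, a transcription factor of macrophages that recycle the iron of red blood cells, was at 3.92 scaled TPM there and at 0.11 to 1.03 in the other 15 livers. The summed level of 5 B cell genes was 14.9 there against 2.14 to 10.0 in the others, that of 6 neutrophil genes 3.78 against 0.50 to 1.94, and that of 5 red blood cell genes 2388, second only to the 3094 of vehicle SP mouse 4. Marco relative to Cd5l, a ratio that scaling does not touch, was 0.67 in that mouse, 0.26 in G108 SP mouse 3 and 0.04 to 0.20 in the other 14. Mitochondrial transcripts took 37.3% of TPM in that library, the highest share. The summed level of the general phagocyte list was 57.5 there against 22.1 to 47.5 in the others. The hepatocyte sum was 31708, the lowest after that of vehicle SP mouse 4. Cd5l, Timd4, Cd68 and Ccr2 also had their highest value in that liver, whereas Clec4f, Vsig4, Adgre1, Lyz2 and Trem2 did not. All 5 B cell genes were above 0 in every library. Vehicle SP mouse 4, with the next highest B cell sum (10.0), had Marco at 1.26 scaled TPM. The part of B cells in the Marco level was not tested.

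**Figure D2:**
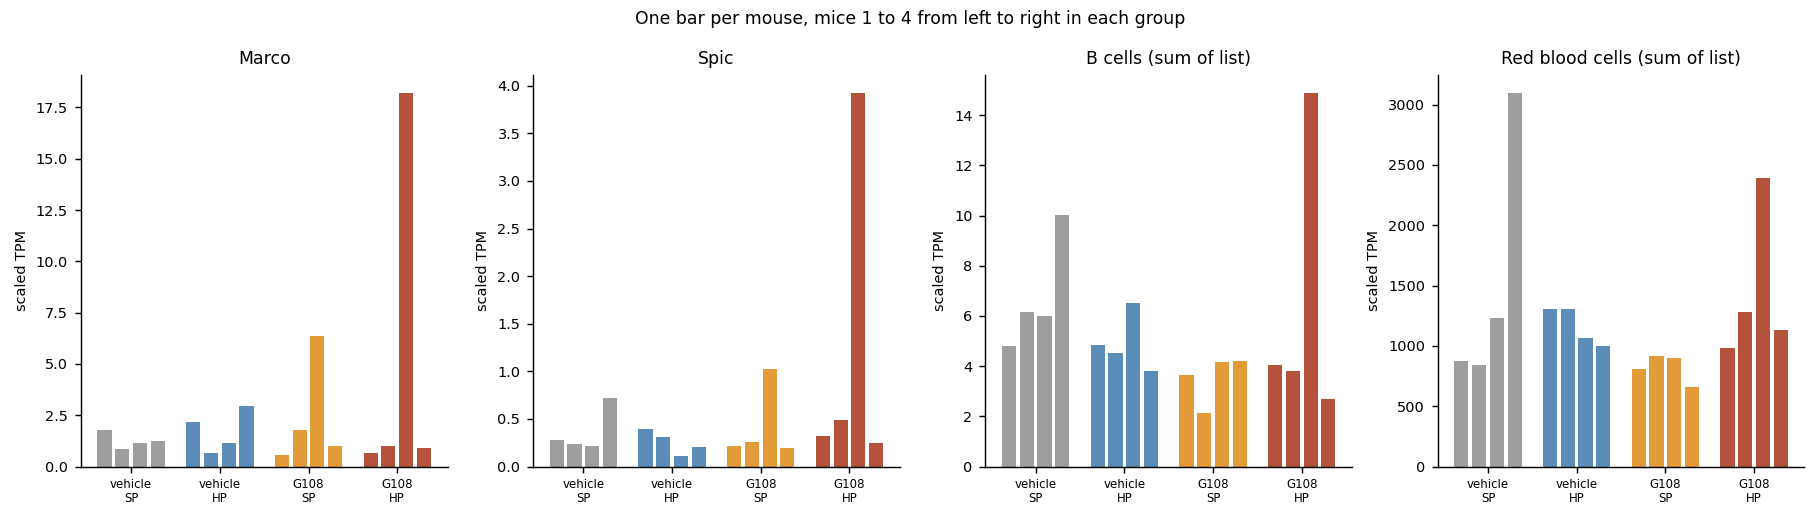
Scaled TPM of Marco and Spic and the summed scaled TPM of the B cell list and the red blood cell list, with 1 bar per mouse on linear axes from 0. G108 HP mouse 3 has the tallest bar for Marco (18.2), Spic (3.92) and B cells (14.9), and vehicle SP mouse 4 for red blood cells (3094).

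Among the markers of all macrophages, Adgre1, which encodes the F4/80 antigen, stood at 0.36, 0.89, 1.01 and 0.39 scaled TPM with vehicle and at 0.30, 0.59, 2.70 and 1.25 with G108 on SP. On HP it stood at 0.64, 0.96, 0.93 and 1.16 with vehicle and at 0.57, 0.40, 1.31 and 0.70 with G108. Vehicle and G108 mice overlapped on both diets. Its log2 fold change on SP was 0.32 (interval -0.26 to 0.90, limma adjusted p = 0.660 with no filter), which fell to 0.03 without G108 SP mouse 3. On HP it was -0.16 (interval -0.74 to 0.42).

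Cd68, a lysosomal membrane protein of phagocytes, stood at 3.19, 3.00, 3.11 and 3.55 scaled TPM in vehicle SP mice and at 1.25, 2.99, 3.94 and 2.99 in G108 SP mice. It stood at 3.83, 3.11, 2.65 and 2.29 in vehicle HP mice and at 2.04, 2.44, 4.03 and 1.99 in G108 HP mice. The vehicle SP mice were nearly identical (3.21 ± 0.24, SD, n = 4), whereas the G108 SP mice spread widely around them (2.79 ± 1.12). The log2 fold changes were -0.21 (interval -0.66 to 0.25) on SP and -0.15 (interval -0.61 to 0.31) on HP.

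Lyz2, the lysozyme of macrophages and neutrophils (chr10:117277331-117282321, minus strand, GRCm38), was the only marker with a comparison in which the groups did not overlap. On HP it stood at 17.3, 13.7, 15.3 and 15.5 scaled TPM with vehicle and at 9.72, 5.06, 8.78 and 9.97 with G108, so that each G108 HP mouse lay below each vehicle HP mouse. The means were 15.4 ± 1.46 and 8.38 ± 2.27 (SD, n = 4 each), a log2 fold change of -0.84 (SE 0.32, interval -1.54 to -0.15). It did not pass after adjustment (limma, adjusted p = 0.295, unadjusted p = 0.0205). Of all genes tested, 8.15% had groups that did not overlap in that comparison, so 1 of 10 markers is near the background. Without G108 HP mouse 2 the fold change was -0.65 with an adjusted p of 0.638.

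On SP, Lyz2 stood at 11.4, 10.8, 14.1 and 7.24 scaled TPM with vehicle and at 4.27, 11.99, 19.8 and 12.2 with G108. The G108 SP mice lay on both sides of the vehicle SP mice, and the log2 fold change was 0.01 (interval -0.68 to 0.70). The difference between the diets in the effect of G108 on Lyz2 was -0.85 on the log2 scale (SE 0.46, interval -1.83 to 0.13) and did not pass in limma (adjusted p = 0.575, unadjusted p = 0.0831). The Lyz2 to Cd68 ratio was 4.76, 2.07, 2.18 and 5.01 in G108 HP mice and 4.51, 4.41, 5.77 and 6.76 in vehicle HP mice, so relative to Cd68 these groups overlapped. Lyz2 has a near-identical neighbour, Lyz1, on the same strand of chromosome 10. Lyz1 was at 0 to 0.44 scaled TPM, and reads that fit both could have been split or dropped in counting.

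Trem2, the lipid receptor of fat-laden macrophages, stood at 0.09, 0.17, 0.07 and 0.14 scaled TPM in vehicle SP mice and at 0.09, 0.10, 0.14 and 0.09 in G108 SP mice. It stood at 0.45, 0.11, 0.15 and 0.10 in vehicle HP mice and at 0.04, 0.16, 0.07 and 0.12 in G108 HP mice. All 4 groups overlapped, and the single high value belonged to vehicle HP mouse 1. The log2 fold changes were -0.02 (interval -0.17 to 0.13) on SP and -0.13 (interval -0.28 to 0.03) on HP, on a scale of log2(scaled TPM + 1) that compresses changes at such low levels.

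Ccr2, the chemokine receptor of recruited monocytes, stood at 0.09, 0.14, 0.12 and 0.12 scaled TPM in vehicle SP mice and at 0.12, 0.04, 0.06 and 0.15 in G108 SP mice. It stood at 0.16, 0.13, 0.11 and 0.15 in vehicle HP mice and at 0.17, 0.13, 0.20 and 0.14 in G108 HP mice. With G108 it was higher on HP than on SP by 0.09 on the same compressed scale (interval 0.02 to 0.15). This did not pass in limma (adjusted p = 0.935, unadjusted p = 0.0141), and the groups overlapped. On log2(scaled TPM + 0.1) the difference was 0.46, and the group means were 0.16 on HP and 0.09 on SP. The Ccr2 values rested on 7 to 35 reads per library, so only large changes could have been seen.

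**Figure D3:**
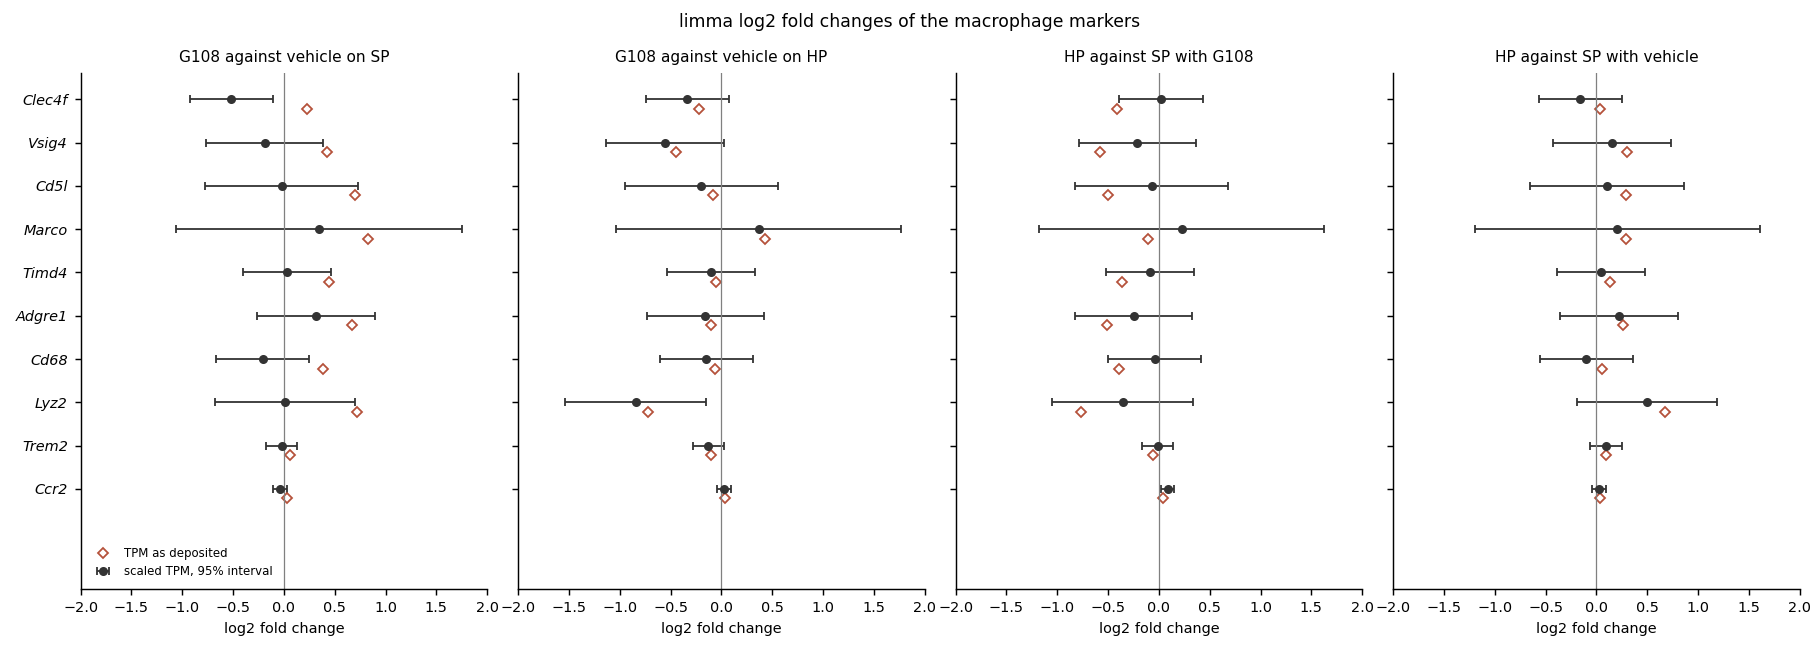
limma log2 fold changes of the 10 markers in 4 comparisons; filled points with bars are scaled TPM with 95% confidence intervals, and open diamonds are the TPM as deposited. Most intervals include 0, the intervals of Clec4f on SP, Lyz2 on HP and Ccr2 with G108 do not, and on SP all 10 diamonds lie above 0 while 4 of 10 filled points do.

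The direction of the markers on SP depended on the scale. On scaled TPM, 4 of 10 markers had a log2 fold change above 0 and the median over the 10 was -0.02, beside -0.01 over all genes tested. In the TPM as deposited, 10 of 10 were above 0 with a median of 0.44, beside 0.60 over all genes, of which 77.6% passed, and 0 of 10 markers passed there. On HP, 2 of 10 were above 0 on either scale, with medians of -0.15 scaled and -0.09 as deposited, where 1.11% of all genes passed. In HP against SP with vehicle, 8 of 10 were above 0 on scaled TPM (median 0.10) and 10 of 10 as deposited (median 0.20), and with G108, 3 of 10 (median -0.06) and 1 of 10 (median -0.40). The interaction was above 0 for 4 of 10 on scaled TPM (median -0.12) and for 1 of 10 as deposited (median -0.47). These medians turned on single mice: without G108 SP mouse 3, 1 of 10 markers was above 0 on SP (median -0.19), and without G108 SP mouse 1, 7 of 10 (median 0.15). Without G108 HP mouse 3, 1 of 10 was above 0 on HP (median -0.38), 0 passed and 2 had an unadjusted p under 0.05. With deposited TPM 60.8% of all genes passed the test of any difference among groups, and again 0 of 10 markers did. Groups that did not overlap were counted for 0 of 10 markers on SP, in HP against SP with G108 and in HP against SP with vehicle, where 9.21%, 4.27% and 2.01% of all genes did not overlap.

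The spread of the markers among mice was also compared between treatments. The coefficient of variation, the SD as a percentage of the mean, was larger with G108 than with vehicle for 9 of 10 markers on SP, while 27.1% of all genes had a larger one. The median over the markers was 25.6% with vehicle and 52.2% with G108 on SP, whereas that over all genes was 21.6% and 13.9%. Trem2 was the exception on both diets. On HP, 9 of 10 markers had the larger coefficient with G108, beside 55.8% of all genes, and the marker medians were 20.4% and 44.9%. Leaving out 1 G108 mouse at a time left 8 to 9 of 10 on SP and 6 to 9 of 10 on HP, with the 6 reached without G108 HP mouse 3, where the marker median was 22.2%. These coefficients are of scaled TPM. In the TPM as deposited, the coefficient on HP was smaller with G108 for Clec4f, Cd68 and Trem2 and larger for the other markers. Deposited Clec4f was 19.1 ± 4.09 with vehicle and 16.1 ± 2.38 with G108 on HP, and Cd68 2.73 ± 0.63 and 2.56 ± 0.57 (SD, n = 4). As deposited on SP, Trem2 was the only exception. Outside the 10, on scaled TPM, genes of the macrophage lists went both ways on SP. The coefficient of Csf1r, the receptor for the growth factor of macrophages, was 15.9% with vehicle and 37.9% with G108. That of the complement gene C1qb was 22.0% and 51.3%. The coefficient was smaller with G108 for the phagocyte gene Mpeg1 (10.3% and 6.88%) and for Cd9 of the lipid-associated macrophage list (19.8% and 8.95%). This comparison was chosen after the values were seen, rests on 4 mice a group and on genes that move together, and has no test. Mean levels of Trem2, Ccr2 and Adgre1 lie under the level required of the other genes, and at few reads counting error adds to the coefficient.

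Over the 4 groups together, Cd5l, Adgre1, Cd68 and Clec4f varied with general phagocyte genes around their group means, by Pearson r and by rank. Timd4 and Marco did so by Pearson r only. With group means subtracted, over 16 livers, each of the 10 markers was set against the mean log2 level of general phagocyte genes. These were 11 genes that are not among the 10. Cd5l followed them most closely (Pearson r = 0.95, adjusted p = 0.00428 by an exact permutation test of mice within groups, two-sided, over 10 relations, raw p = 4.28e-04, Spearman rho = 0.85 with adjusted p = 0.0275). Without the 2 farthest mice, G108 SP mouse 3 and G108 HP mouse 3, r was 0.87. Adgre1 (r = 0.81, adjusted p = 0.0118, rho = 0.78) and Cd68 (r = 0.81, adjusted p = 0.0157, rho = 0.69) also passed by the same exact permutation test and kept r of 0.70 and 0.66 without those mice. The phagocyte mean deviated by -0.11 to 0.15 in vehicle SP mice and by -0.09 to 0.15 in vehicle HP mice. With G108 it deviated by -0.37 to 0.43 on SP and by -0.31 to 0.61 on HP, so these relations rest largely on G108 mice. The share of all genes that would pass was not computed.

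Clec4f passed with r = 0.70 (exact permutation test, adjusted p = 0.0158, rho = 0.65, adjusted p for rho = 0.0320), and r was 0.52 without the 2 farthest mice. Timd4 (r = 0.81, adjusted p = 0.0299) and Marco (r = 0.83, adjusted p = 0.0474) passed by r in the exact permutation test but not by rho (0.59 and 0.64, adjusted p = 0.0869 for each). Without the 2 mice their r was 0.54 and 0.44, so the Marco relation rests largely on them. Vsig4 (r = 0.59, adjusted p = 0.0526) and Lyz2 (r = 0.61, adjusted p = 0.0729) did not pass the exact permutation test. Trem2 (r = 0.12) and Ccr2 (r = 0.29) showed no relation that could be told from 0. They had 6 to 62 and 7 to 35 reads per library, and the part of low counts was not tested.

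**Figure D4:**
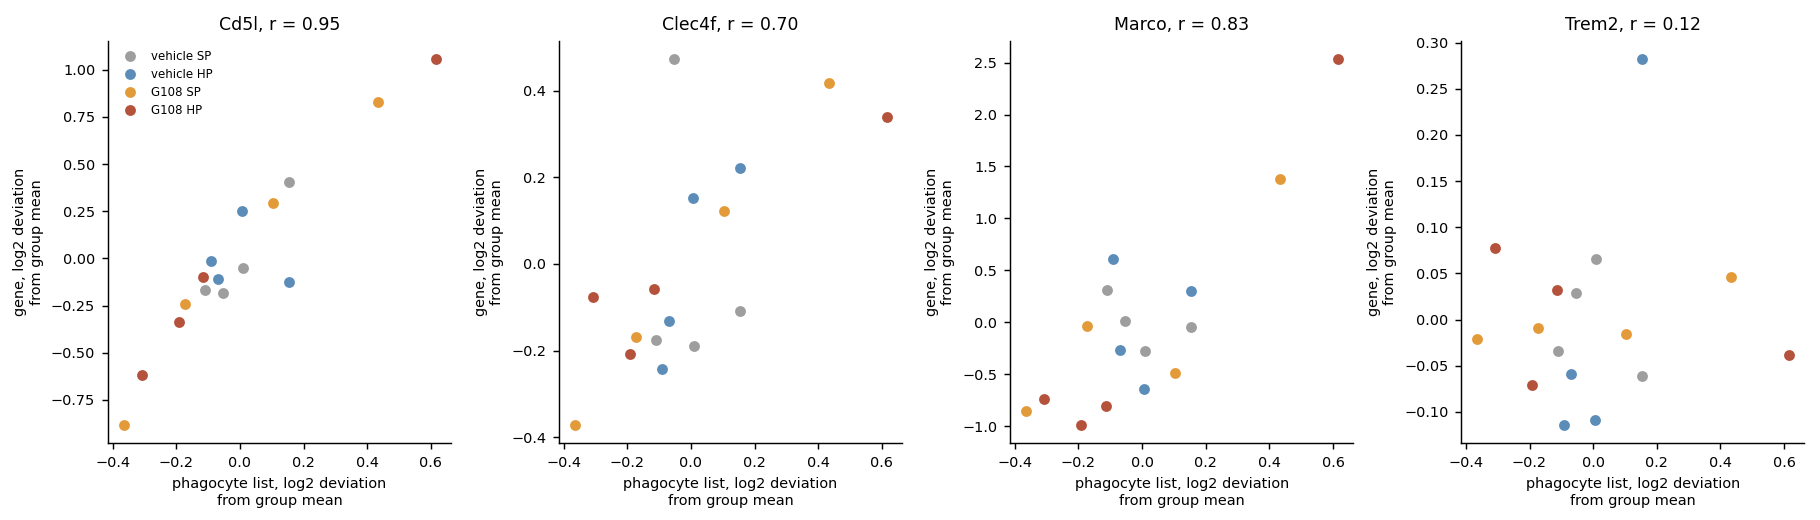
Deviation of each liver from its group mean, in log2(scaled TPM + 1), of Cd5l, Clec4f, Marco and Trem2 (vertical axes) against the mean of 11 phagocyte genes (horizontal axes), coloured by group (n = 16). Cd5l lies close to a line (r = 0.95), Marco is drawn out by G108 SP mouse 3 and G108 HP mouse 3 (r = 0.83), and Trem2 shows no trend (r = 0.12).

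Clec4f relative to Cd68, a ratio in which the library factor cancels, was 6.34, 6.67, 6.83 and 9.08 in vehicle SP mice and 9.56, 4.65, 5.42 and 5.77 in G108 SP mice. In vehicle HP mice it was 6.27, 7.34, 7.02 and 7.46, and in G108 HP mice 6.72, 6.20, 5.09 and 7.71. Of the G108 SP mice, 3 lay below all vehicle SP mice, and mouse 1 lay above them. The genes of at least 1 TPM whose level was most like that of Clec4f over the 16 livers were Mphosph8 (r = 0.91), Gngt2 (r = 0.86), Pld4 (r = 0.86), Gm26716 (r = 0.85) and Ucp2 (r = 0.85), given as a description.

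Among other genes of the Kupffer cell list, 13 of 17 were abundant enough to test, and their median log2 fold change with G108 was -0.14 on SP and -0.23 on HP, beside -0.01 and 0.00 over all genes. The receptor Csf1r, on which Kupffer cells depend, had log2 fold changes of -0.19 (interval -0.64 to 0.26) on SP and -0.15 (interval -0.60 to 0.30) on HP. The complement gene C1qa, made by Kupffer cells, had -0.30 (interval -0.84 to 0.24) and -0.45 (interval -0.99 to 0.09). Neither passed.

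Of the list of phagocytes in general, 11 of 15 genes could be tested, 1 rose and 0 fell on SP, with a median of -0.18, and 0 passed on HP, with a median of 0.03. The gene that rose was Mpeg1, which encodes perforin-2, a pore-forming protein of phagocytes. Mpeg1 stood at 5.34, 4.29, 5.44 and 5.08 scaled TPM with vehicle on SP and at 7.87, 6.87, 6.80 and 7.34 with G108. Every G108 SP mouse lay above every vehicle SP mouse, and the mean went from 5.04 to 7.22 scaled TPM (log2 fold change 0.45, SE 0.09, limma adjusted p = 0.0110). Of all genes, 9.21% did not overlap in that comparison. Vehicle HP mice, at 7.34, 6.22, 6.79 and 6.69, also lay above every vehicle SP mouse. That difference was 0.36 on the log2 scale and did not pass (limma adjusted p = 0.759). The log2 fold change of Mpeg1 with G108 on HP was 0.09, which did not pass (adjusted p = 0.789). With only the SP groups in the fit its adjusted p was 0.0954, and under the other 39 alternatives it passed.

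**Figure D5:**
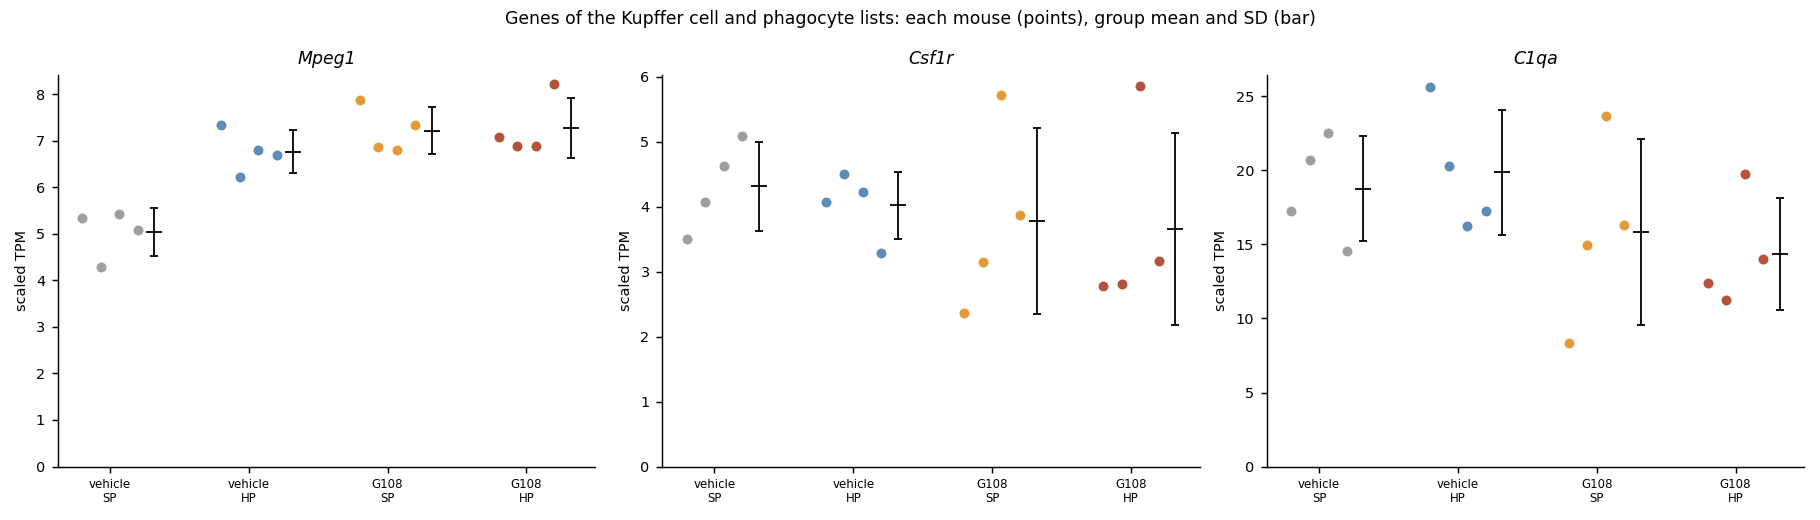
Scaled TPM (linear axis from 0) of Mpeg1, Csf1r and C1qa by group; points are mice and bars give the mean with its SD (n = 4). With G108 on SP Mpeg1 lies above all vehicle SP mice, as it does in vehicle HP and G108 HP mice, while Csf1r and C1qa overlap between all groups.

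Of the lipid-associated macrophage list, 6 of 12 genes could be tested and 0 rose or fell with G108 on either diet in limma, with 1 at an unadjusted p under 0.05 on each (medians 0.22 on SP and -0.10 on HP). In the TPM as deposited, 4 of the 6 passed as higher on SP, beside 77.6% of all genes. Cd9, a tetraspanin of this list that hepatocytes and other cells also make, passed on scaled TPM in the test of any difference among the 4 groups (limma adjusted p = 0.0259). Its scaled log2 fold change with G108 was 0.44 on SP (limma adjusted p = 0.132) and 0.47 on HP (limma adjusted p = 0.162). HP against SP gave -0.37 with vehicle and -0.34 with G108, and none of these 4 comparisons passed. In the TPM as deposited Cd9 passed also with G108 on SP (log2 fold change 1.06, limma adjusted p = 0.000366), where the median gene was 0.60 higher. Of the recruited monocyte list, 1 of 9 genes was abundant enough to test, and of the chemokine and cytokine list, 2 of 15. None of these passed, and 1 recruited monocyte gene and 0 cytokine genes had an unadjusted p under 0.05 on SP, with 0 of either on HP. Of the antigen presentation list, 6 of 7 genes were tested and 0 passed, also at an unadjusted p under 0.05, on either diet. As deposited, 2 genes each of the phagocyte, cytokine and antigen presentation lists passed as higher on SP.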

How the data were processed

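RNA from 16 livers was sequenced with 1 library per mouse. The authors checked reads with FastQC 0.11.8, aligned them to GRCm38 with HISAT2 2.0.5, counted them with featureCounts and deposited TPM, computed from counts and exon lengths. Gene symbols, positions and lengths were read from GENCODE's GRCm38 annotation. TPM were divided by median-of-ratios factors from 11591 genes. The authors used DESeq2, which scales counts in the same way. Groups were compared in limma 3.58.1 (R 4.3.3) on log2(scaled TPM + 1) with an intensity trend over 11839 genes, those whose mean TPM was 1 or more. Benjamini-Hochberg adjustment ran over all genes, with a threshold of 0.05. Adgre1, Trem2 and Ccr2 had lower means and were taken from a fit without that filter over 32076 genes. Whole reads were recovered from 139252 low values, 98.7% of them within 0.02 of a whole read, and used for depth and voom.

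All 10 markers are named. From each gene list up to 3 genes per comparison with the largest change among those that passed were named, and for Clec4f the 5 genes most like it, except that 1 result is not reported here. The markers and lists were chosen with earlier results of these data known. Alternatives were deposited TPM, other pseudocounts and filters, fits of the compared groups only, a mouse-number block, array weights, voom and leaving out single libraries. The sample records and the study's methods differ on the mice's age, the length of the high fat period and the day of cull, and the sample records were followed. Each mouse was caged alone, and whether mice shared litters or days is not given in the sources used here. Mouse numbers did not pair the libraries: deviations of same-numbered mice from their group means correlated with r of -0.57 to 0.53 (median -0.03, 24 pairs).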

Additional observations from a re-analysis of the deposited data

Results flagged for a closer look

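A test for a single extreme value was run on each of the 10 markers in each of the 4 groups, 40 in all, and chance would mark about 1 in 20. It marked 3. Clec4f stood at 32.2 scaled TPM in vehicle SP mouse 4, with the next mouse of the group at 21.2. That library also had the highest red blood cell sum (3094) and the lowest hepatocyte sum (27233 scaled TPM). Marco stood at 18.2 in G108 HP mouse 3, with the next mouse at 0.99. Trem2 stood at 0.454 in vehicle HP mouse 1, with the next mouse at 0.15.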

How the results depend on the processing

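No marker passed under any setting on scaled TPM or with voom: another pseudocount, other filters, only the groups compared, array weights, or leaving out any 1 of the 16 libraries (counts of 0 to 0). With the mouse number as a replicate block, 0 markers passed in every comparison, while the genes called fell from 322 to 213 on SP and from 145 to 35 on HP. 8 of 24 same-numbered pairs correlated above 0.1 and 4 of 16 libraries correlated best with their own number. The counts over all genes moved by over 1.5 times on SP to 9185 (deposited TPM), 103 (only the groups compared), 1821 (array weights) and 158 to 471 (single libraries left out: 158, 159 and 175 without G108 SP mouse 3, 4 and 2, 214 without vehicle SP mouse 3), and on HP to 52, 795, 43 (no filter), 77 (mean TPM of at least 5) and 17 to 210 (single libraries left out: 17, 38 and 43 without G108 HP mouse 3, 2 and 4, 18 and 26 without vehicle HP mouse 4 and 3, 80 without G108 SP mouse 2). In HP against SP with G108, array weights called 297 genes (2.51%) in place of 0, where 0 markers passed and 5 of the 7 in the fit had an unadjusted p under 0.05, and in the test of any difference 1994 genes in place of 329, with 0 markers. In the deposited TPM 0 markers passed with all libraries. Without G108 SP mouse 1 as well, 5 passed on SP (background 78.0%), 4 in HP against SP with G108 (25.4%), 4 in the interaction (33.4%) and 3 in the test of any difference (65.0%). Among these, the log2 fold changes on SP of Vsig4 (0.79), Cd5l (1.07) and Cd68 (0.69) were above 0. They were also above 0 on scaled TPM without the same mouse (0.10, 0.27 and 0.03). The Cd68 interaction was -0.75, beside -0.18 on scaled TPM without that mouse. On scaled TPM with all mice the signs were the opposite: -0.19, -0.02 and -0.21 on SP, and 0.06 for the Cd68 interaction. Without G108 HP mouse 4, 1 marker passed in the interaction (43.9%). With single libraries left out of the deposited TPM, the counts thus ran from 0 to 5 on SP, 0 to 4 in HP against SP with G108, 0 to 4 in the interaction and 0 to 3 in the test of any difference. The cause was not tested. With 4 mice a group and down to 6 reads for Trem2, small changes could not be seen.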

Other observations

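Of 10 genes of the sinusoidal endothelium, the cells among which Kupffer cells sit, 9 were tested with G108 on SP and 0 passed in limma. 6 had an unadjusted p under 0.05, as had 2098 of all 11839 genes. All 9 log2 fold changes on scaled TPM were below 0, with a median of -0.29 beside -0.01 over all genes. In the TPM as deposited 2 of them passed as higher. Their summed level was 35.8, 42.2, 35.0 and 43.0 scaled TPM in vehicle SP mice and 28.1, 27.1, 33.3 and 31.5 in G108 SP mice, which did not overlap, nor did 9.21% of all genes. On HP the sums were 37.5, 36.6, 39.4 and 31.8 with vehicle and 33.4, 35.1, 42.6 and 32.2 with G108, the groups overlapped, and the median of the genes was -0.04.

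Of the hepatocyte list, 10 of 10 genes were tested and 1 rose with G108 on SP: Ass1, the urea cycle enzyme that makes argininosuccinate (log2 fold change 1.21, limma adjusted p = 0.0241). The stellate cell list had 5 of 10 genes tested, 0 passed and 0 had an unadjusted p under 0.05 on either diet. Of the 5 red blood cell genes, 0 passed and 3 had an unadjusted p under 0.05 on SP. 1 gene each of the lists of T and NK cells, B cells and dendritic cells was tested, and 0 passed. On SP the T and NK cell gene (log2 fold change -0.61) and the B cell gene (-0.91) had an unadjusted p under 0.05 in limma. The dendritic cell gene did not, and none of them did on HP. The cholangiocyte, neutrophil, adipocyte and skeletal muscle lists had 0 genes at a mean TPM of 1, and Lep, the adipocyte hormone leptin, was at 0 in all 16 libraries.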
